A study of Homo sapiens with 12 samples.

Results

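The genes described here encode 9 secreted factors that act on blood vessels: VEGFA, VEGFB, VEGFC, PGF, ADM, EDN1, ANGPTL4, FGF2 and PDGFB. They were chosen by name, with earlier results of these data known. All 9 had at least 1 probe set that the array annotation assigns to that gene alone, 17 probe sets in all, among 11963 genes measured. A gene with several is given by its brightest on average over the 12 arrays, called its main probe set. The arrays hold RNA from RCC4, a cell line from a clear cell renal carcinoma without functional VHL. In each of 4 groups there were 3 arrays, labelled biological replicates: cells labelled VHL without cystine for 6 h, VHL cells in control full DMEM for 6 h, cells labelled Vec without cystine for 6 h, and Vec cells in control DMEM for 6 h. RCC4 lines of these names carry VHL put back or an empty vector, which the labels do not spell out. All groups share the RCC4 background, and the labels do not say whether the VHL and Vec lines are single clones or pools, so VHL itself and other differences between these lines cannot be told apart. Dialysed serum is named for the deprived medium alone, so loss of cystine and a change of serum cannot be told apart either. Values are log2 expression values, a difference of 1 is a doubling, and a value at or under 6.96, the 40th percentile of all genes, is called dim here.

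VHL is the part of a ubiquitin ligase that recognises the alpha subunits of hypoxia-inducible factor (HIF) and marks them for destruction when oxygen is present. Cells without it keep HIF active in normal oxygen, and clear cell renal carcinomas, most of which have lost VHL, are known for their dense blood vessels. VEGFA, ADM, EDN1 and ANGPTL4 are textbook HIF target genes. VEGFA drives the growth and leakiness of blood vessels through the receptors KDR and FLT1, VEGFB and PGF bind FLT1, and VEGFC acts on lymphatic vessels through FLT4. ADM widens vessels, EDN1 constricts them, ANGPTL4 blocks lipoprotein lipase, FGF2 is a heparin-bound growth factor, and PDGFB recruits the cells that wrap capillaries.

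The 250 bases before the start of ADM, EDN1 and ANGPTL4 are shown because these genes differed most between the lines, and those of VEGFB because it was nearly level over all groups. They come from RefSeq for GRCh38.p14, run 5′ to 3′ toward the start, and carry in capitals every match, on either strand, to ACGTG or GCGTG, the letters at the core of the hypoxia response element. ADM lies at chr11:10305073-10307397 and its window at chr11:10304823-10305072 on the plus strand. EDN1 is annotated at chr6:12230516-12297194, and windows were found for 3 starts, all well inside that span. The window of the most downstream of these starts is chr6:12290111-12290360 on the plus strand. ANGPTL4 lies at chr19:8364155-8374370 with its window at chr19:8363905-8364154 on the plus strand, and VEGFB at chr11:64234584-64239264 with its window at chr11:64234334-64234583 on the plus strand.
ADM: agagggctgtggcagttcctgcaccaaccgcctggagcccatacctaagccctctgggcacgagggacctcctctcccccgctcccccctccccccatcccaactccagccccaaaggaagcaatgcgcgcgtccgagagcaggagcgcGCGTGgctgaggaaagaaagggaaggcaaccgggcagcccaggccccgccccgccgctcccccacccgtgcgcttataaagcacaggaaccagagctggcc
EDN1: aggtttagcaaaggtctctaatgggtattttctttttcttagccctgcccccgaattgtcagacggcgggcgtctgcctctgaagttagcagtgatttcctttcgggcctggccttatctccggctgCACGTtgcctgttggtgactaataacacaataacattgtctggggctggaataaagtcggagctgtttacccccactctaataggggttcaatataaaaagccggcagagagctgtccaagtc
ANGPTL4: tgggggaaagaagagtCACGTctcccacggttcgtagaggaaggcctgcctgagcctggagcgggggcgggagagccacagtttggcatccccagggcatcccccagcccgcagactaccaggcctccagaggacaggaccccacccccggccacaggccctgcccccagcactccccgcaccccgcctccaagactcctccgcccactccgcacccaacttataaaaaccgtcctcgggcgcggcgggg
VEGFB: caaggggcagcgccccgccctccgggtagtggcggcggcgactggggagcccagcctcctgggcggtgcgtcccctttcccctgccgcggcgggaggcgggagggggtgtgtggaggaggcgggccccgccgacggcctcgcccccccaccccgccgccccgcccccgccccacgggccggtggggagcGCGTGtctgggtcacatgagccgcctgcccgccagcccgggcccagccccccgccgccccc
In these windows ADM and VEGFB each hold 1 match to GCGTG, the ADM match ending 97 bases before the start, and EDN1 and ANGPTL4 each hold 1 match to ACGTG, the EDN1 match ending 119 bases before the start. The other EDN1 windows found differ: the most upstream of the 3 holds 2 matches to ACGTG and 1 to GCGTG, and the middle window holds neither. Over the 35116 windows of the table, 18.5% hold ACGTG, 32.2% hold GCGTG and 43.2% hold at least 1 of them, so a match is common. Windows were found for 7 of the 9 genes, 10 windows in all, and none of the 10 holds TGATGNAA, the core of the amino acid response element, which 3.14% of all windows hold. These matches describe letters and do not show binding.

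The arrays had similar medians, from 7.12 to 7.18, and no array was left out. The probe set for VHL itself was dim, at 5.94, 5.93 and 5.94 in VHL deprived, 5.95, 6.00 and 6.02 in VHL control, 5.87, 6.07 and 6.03 in Vec deprived and 5.80, 5.87 and 5.88 in Vec control cells, so it cannot check the labels. Of 10 renal epithelial markers 7 were above the dim limit, PAX8, PAX2, CDH6, HAVCR1, EPCAM, KRT8 and KRT18, with CUBN, LRP2 and SLC22A6 below it. The summed linear signal of these 10 ran from 12772 to 13281 in VHL deprived and 12807 to 13066 in VHL control cells. It ran higher in Vec cells, from 13863 to 14285 in deprived and 13535 to 14190 in control medium. All 10 endothelial markers were dim, with means from 4.39 to 6.59, and their summed linear signal ran from 480 to 513 in VHL deprived, 495 to 504 in VHL control, 499 to 528 in Vec deprived and 494 to 509 in Vec control cells. Of 5 blood markers HBB alone lay above the limit, at 6.98, and of 6 fibroblast markers COL1A1 alone, at 8.04.

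ADM, the vasodilator adrenomedullin, separated the lines by the widest margin of the 9. It read 7.76, 7.76 and 7.65 in VHL deprived cells and 7.30, 7.36 and 7.28 in VHL control cells, against 10.86, 10.95 and 10.95 in Vec deprived cells and 10.91, 10.92 and 10.80 in Vec control cells. Every VHL array lay below every Vec array, and within VHL cells every deprived array lay above every control array. ADM was 9.19-fold lower in VHL than in Vec cells in deprived medium (log2 -3.20 ± 0.05, SE, limma adjusted p = 1.16e-13) and 11.8-fold lower in control medium (-3.56 ± 0.05, limma adjusted p = 3.19e-14). Deprivation raised it 1.33-fold in VHL cells (0.41 ± 0.05, limma adjusted p = 3.36e-04), while the Vec groups overlapped and differed by 0.05 ± 0.05, with a 95% interval from -0.07 to 0.16 (limma adjusted p = 0.749). Arrays read RNA from whole cultures, so fewer cells with a transcript and less of it per cell cannot be told apart.

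EDN1, the precursor of the vasoconstrictor endothelin 1, also kept the lines apart. Its values were 7.64, 7.36 and 7.43 in VHL deprived cells and 6.89, 6.79 and 6.94 in VHL control cells, against 9.37, 9.24 and 9.37 in Vec deprived cells and 9.01, 8.87 and 9.03 in Vec control cells. No pair of neighbouring groups overlapped: Vec deprived stood highest, then Vec control, VHL deprived and VHL control, whose 3 arrays were all dim. EDN1 was 3.6-fold lower in VHL than in Vec cells in deprived medium (-1.85 ± 0.08, limma adjusted p = 4.63e-10) and 4.28-fold lower in control medium (-2.10 ± 0.08, limma adjusted p = 1.34e-10). Deprivation raised it 1.52-fold in VHL cells (0.60 ± 0.08, limma adjusted p = 2.60e-04) and 1.28-fold in Vec cells (0.36 ± 0.08, limma adjusted p = 0.0201). On main probe sets EDN1 alone of the 9 was called on deprivation in each line, while single further probe sets of VEGFA and FGF2 were also called in each, as given with those genes. The EDN1 call in Vec cells was lost without Vec control replicate 2 (limma adjusted p = 0.0857) or without Vec deprived replicate 1 (0.0764) or 3 (0.0761), in a range from 0.00476 to 0.0857 over the alternatives.

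VEGFA, the main growth factor of blood vessels, read 10.56, 10.54 and 10.61 in VHL deprived cells and 9.98, 9.66 and 9.82 in VHL control cells, against 11.36, 11.46 and 11.46 in Vec deprived cells and 10.93, 11.20 and 11.36 in Vec control cells. The VHL arrays all lay below the Vec arrays, the VHL deprived arrays all lay above the VHL control arrays, and the Vec groups met at 11.36. VEGFA was 1.81-fold lower in VHL than in Vec cells in deprived medium (-0.86 ± 0.10, limma adjusted p = 7.50e-06) and 2.54-fold lower in control medium (-1.34 ± 0.10, limma adjusted p = 1.11e-07). Deprivation raised it 1.68-fold in VHL cells (0.75 ± 0.10, limma adjusted p = 3.77e-04). In Vec cells the difference of 0.27 ± 0.10 had a 95% interval from 0.05 to 0.48, short of a call (limma adjusted p = 0.179). Without Vec control replicate 1, the lowest of its group, it was 0.15 (limma adjusted p = 0.464), and over the alternatives it ran from 0.15 to 0.37.

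The other 3 VEGFA probe sets gave the same directions. Adjusted over all 22215 probe sets, each of the 4 was lower in VHL than in Vec cells, by 0.57 to 0.90 on the log2 scale when deprived and by 0.85 to 1.34 in control medium, and each rose on deprivation in VHL cells, by 0.47 to 0.75. In Vec cells 1 of the 4, 212171_x_at, was called, at 0.36 ± 0.07 (limma adjusted p = 0.0163), with 9.94, 10.08 and 10.12 in deprived and 9.65, 9.58 and 9.82 in control medium. The others gave 0.18 to 0.28 there and were not called (limma adjusted p from 0.177 to 0.417). Probe sets of a gene share transcripts and are no replicates of each other.

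ANGPTL4, angiopoietin-like 4, which inhibits lipoprotein lipase and also acts on vessels, read 8.84, 8.55 and 8.54 in VHL deprived cells and 8.82, 8.48 and 8.82 in VHL control cells, against 10.90, 10.87 and 10.84 in Vec deprived cells and 10.22, 10.09 and 10.52 in Vec control cells. Deprived and control arrays were interleaved in VHL cells and fully separate in Vec cells, where deprivation raised ANGPTL4 1.5-fold (0.59 ± 0.12, limma adjusted p = 0.0146). In VHL cells the difference was -0.06 ± 0.12, with a 95% interval from -0.32 to 0.19 (limma adjusted p = 0.786). ANGPTL4 was 4.67-fold lower in VHL than in Vec cells in deprived medium (-2.22 ± 0.12, limma adjusted p = 4.55e-09) and 2.98-fold lower in control medium (-1.57 ± 0.12, limma adjusted p = 1.33e-07). Its call in Vec cells was lost without Vec control replicate 1 or 2 (limma adjusted p = 0.0624 each) and without Vec deprived replicate 1 (0.0566) or 2 (0.0504), with log2 changes between 0.50 and 0.59. Over the alternatives its adjusted p by limma ran from 0.00524 to 0.0624.

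**Figure D1:**
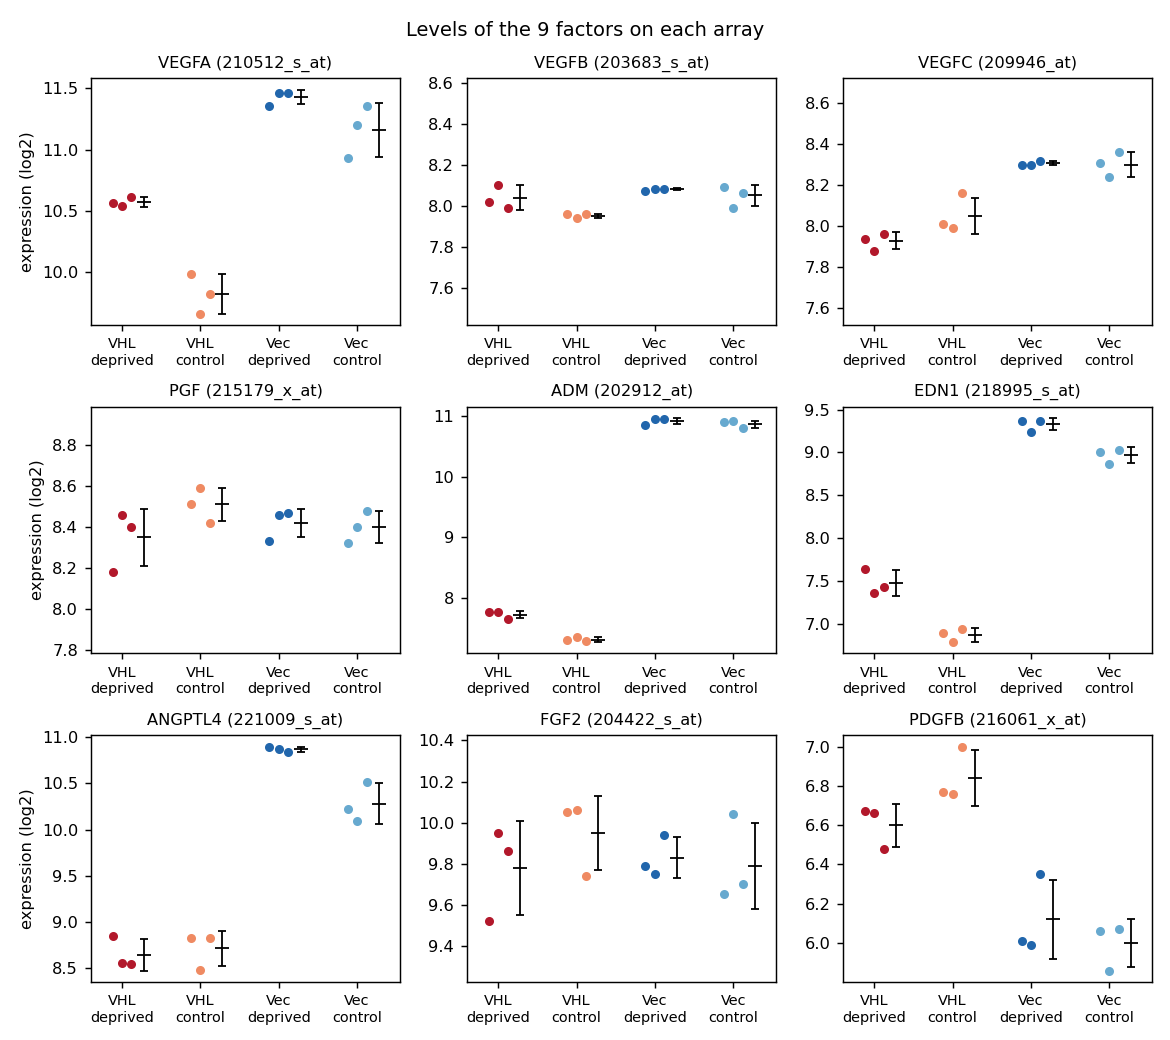
Expression (log2) of the 9 factors on each of the 12 arrays, with the main probe set named above each panel, each panel on its own axis, and mean ± SD of 3 arrays in black. ADM, EDN1, VEGFA, ANGPTL4 and VEGFC were lower on every VHL array than on every Vec array, while PDGFB was higher on every VHL array.

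Among the other VEGF family members, VEGFC, the lymphatic growth factor, averaged 7.93 ± 0.04 in VHL deprived and 8.05 ± 0.09 in VHL control cells, against 8.31 ± 0.01 in Vec deprived and 8.30 ± 0.06 in Vec control cells (SD, n = 3 each). It was lower in VHL than in Vec cells, with a log2 difference of -0.38 ± 0.05 for the deprived groups (limma adjusted p = 4.93e-05) and -0.25 ± 0.05 for the control groups (0.00171). Both are small beside the differences of VEGFA on the same scale. On deprivation VEGFC gave -0.13 ± 0.05 in VHL cells (limma adjusted p = 0.142) and 0.0036 in Vec cells (limma adjusted p = 0.986), neither called. VEGFB, a relative that signals through FLT1, spanned 0.12 between its highest and lowest group means, and its differences lay between -0.09 and 0.08 with no call in any comparison (limma adjusted p from 0.129 to 0.837). PGF, placental growth factor, spanned 0.16, with differences between -0.18 and 0.11 and no call (limma adjusted p from 0.186 to 0.947). The main PGF probe set ends in _x_at, a mark of probes that may bind other transcripts, and its other probe set was dim at a mean of 5.34.

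FGF2, basic fibroblast growth factor, gave different answers on its 2 probe sets, whose means over all arrays were 9.84 and 9.79. The brighter, 204422_s_at, read 9.52, 9.95 and 9.86 in VHL deprived cells and 10.05, 10.06 and 9.74 in VHL control cells, against 9.79, 9.75 and 9.94 in Vec deprived cells and 9.65, 10.04 and 9.70 in Vec control cells. All 4 groups overlapped on it, and no comparison was called (limma adjusted p from 0.350 to 0.934). The other, 204421_s_at, read 10.48, 10.40 and 10.48 in VHL deprived cells and 9.95, 9.95 and 10.01 in VHL control cells, against 9.50, 9.44 and 9.57 in Vec deprived cells and 9.25, 9.27 and 9.15 in Vec control cells. On this probe set no groups overlapped. FGF2 by 204421_s_at was higher in VHL than in Vec cells, by 0.95 ± 0.05 in deprived medium (limma adjusted p = 7.99e-09) and 0.75 ± 0.05 in control medium (8.58e-08), and rose on deprivation by 0.48 ± 0.05 in VHL cells (1.04e-04) and 0.28 ± 0.05 in Vec cells (0.0132), adjusted over all probe sets. The SDs within groups ran from 0.03 to 0.06 on 204421_s_at and from 0.10 to 0.23 on 204422_s_at. Which of these reads the FGF2 transcripts more faithfully was not tested.

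PDGFB, the B chain of platelet-derived growth factor, was higher in VHL cells on a dim signal. Its main probe set, 216061_x_at, read 6.67, 6.66 and 6.48 in VHL deprived cells and 6.77, 6.76 and 7.00 in VHL control cells, against 6.01, 5.99 and 6.35 in Vec deprived cells and 6.06, 5.86 and 6.07 in Vec control cells. Every VHL array lay above every Vec array. PDGFB was 1.39-fold higher in VHL than in Vec cells in deprived medium (0.48 ± 0.10, limma adjusted p = 0.00155) and 1.8-fold higher in control medium (0.85 ± 0.10, limma adjusted p = 1.22e-05). The probe set 204200_s_at, with the same mean of 6.39, gave 0.82 ± 0.08 in deprived and 0.89 ± 0.08 in control medium, while 216055_at and 217112_at, with means of 5.11 and 5.84, gave differences from -0.02 to 0.20 that were not called. The average of its 4 probe sets gave 0.48 between the control groups by limma (adjusted p = 2.59e-04). PDGFB had no call on deprivation in VHL cells (-0.24 ± 0.10, limma adjusted p = 0.146) or in Vec cells (0.13 ± 0.10, 0.610).

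**Figure D2:**
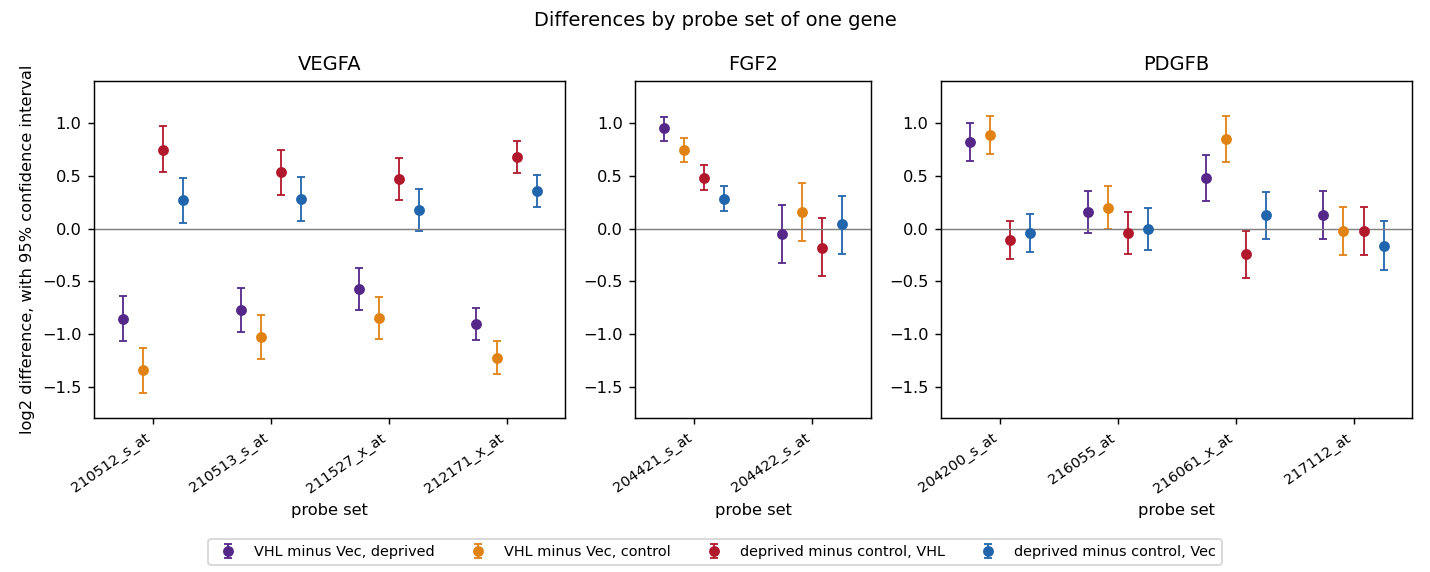
Differences (log2, points, with 95% confidence intervals as bars) on each probe set of VEGFA, FGF2 and PDGFB, by comparison. The 4 VEGFA probe sets ran together, while those of FGF2 differed: 204421_s_at gave 0.95 between VHL and Vec cells in deprived medium and 204422_s_at gave -0.05.

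Counted over the 9 factors, VHL cells in deprived medium had 5 lower than Vec cells (ADM, EDN1, ANGPTL4, VEGFA and VEGFC) and 1 higher (PDGFB), and these 5 and 1 were also called in control medium. Of all genes, 23% were called lower and 24.2% higher in VHL cells in deprived medium, and 23% lower and 23.1% higher in control medium, so a call between the lines is common. The median difference of the 9 was -0.38 in deprived and -0.25 in control medium, against 0.0035 and -0.00082 over all genes. As the 9 were chosen with earlier results of these data known, these counts and medians are descriptions. ADM, EDN1, ANGPTL4 and VEGFA each differed by at least 1.81-fold in each medium, and VEGFC by at most 1.3-fold.

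**Figure D3:**
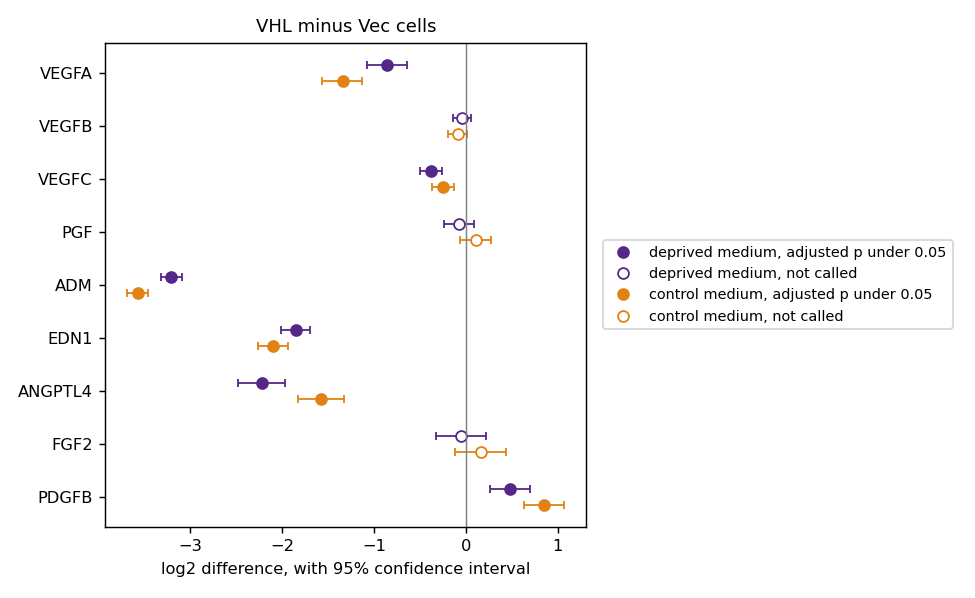
Differences between VHL and Vec cells (log2, points, with 95% confidence intervals as bars) in deprived and control medium, filled where called. ADM lay at -3.20 in deprived and -3.56 in control medium, and PDGFB at 0.48 and 0.85 was the single factor called above 0.

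Deprivation raised 3 of the 9 in VHL cells (VEGFA, EDN1 and ADM) and 2 of the 9 in Vec cells (ANGPTL4 and EDN1), and lowered none in either line. At an unadjusted p under 0.05, 6 of the 9 passed in VHL cells and 3 in Vec cells, where 26.8% and 16.6% of all genes did. Those beyond the called genes were PDGFB, VEGFC and PGF, all with negative differences, in VHL cells and VEGFA in Vec cells. By adjusted p, 6.16% of all genes rose and 5.48% fell in VHL cells, and 2.11% rose and 2.06% fell in Vec cells. The median change of the 9 was -0.06 in VHL and 0.05 in Vec cells, against 0.01 over all genes in each. On main probe sets the largest change of any of the 9 was the 1.68-fold rise of VEGFA in VHL cells.

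**Figure D4:**
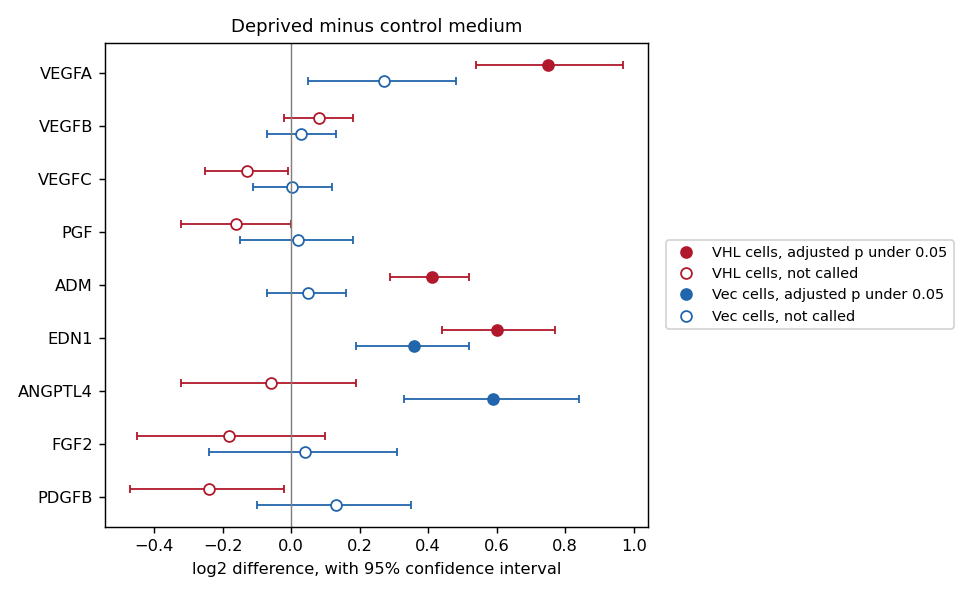
Changes on cystine deprivation (log2, deprived minus control medium, points, with 95% confidence intervals as bars) in VHL and Vec cells, filled where called. VEGFA, EDN1 and ADM were called in VHL cells at 0.75, 0.60 and 0.41, and ANGPTL4 and EDN1 in Vec cells at 0.59 and 0.36.

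Whether the lines differed in their response was tested as the VHL change minus the Vec change. None of the 9 was called by limma, where 0.125% of all genes were called with a positive and 0.00836% with a negative difference. An unadjusted p under 0.05 was reached by 5 of the 9 and by 9.83% of all genes. ADM came closest, at 0.36 ± 0.07 with a 95% interval from 0.20 to 0.53 (limma adjusted p = 0.131). It was called when dim genes were left out (limma adjusted p = 0.0443) and with a variance trend and robust moderation (0.0306), and its adjusted p ran from 0.0306 to 0.296 over the alternatives. ANGPTL4 gave -0.65 ± 0.17 (limma adjusted p = 0.232), VEGFA 0.49 ± 0.14 (0.298), PDGFB -0.37 ± 0.15 (0.425) and EDN1 0.25 ± 0.11 (0.470). For these 5 genes a difference in response between the lines is therefore not shown. They are the 5 with an unadjusted p under 0.05, so their 95% intervals lie to 1 side of 0 by that choice.

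Among the receptors of these factors, 1 was called on deprivation and 6 were called between lines in each medium. Of all genes, 2.11% rose and 2.06% fell on deprivation in Vec cells, and 6.16% rose and 5.48% fell in VHL cells. Between lines 23.1% were higher and 23% lower in control medium, and 24.2% and 23% in deprived medium. Whether the receptors depart from these shares was not tested. Of 19 listed receptors and co-receptors 18 were measured and 7 lay above the dim limit. In Vec cells 1 fell on deprivation, FGFR3, an FGF receptor, at -0.36 ± 0.08 (limma adjusted p = 0.0328), and in VHL cells none of the 18 was called. VHL cells in control medium had 5 higher and 1 lower than Vec cells, with a list median of 0.02. These 5 were FGFR2, FGFR3, CALCRL, FGFR4 and FLT4, the last dim at a mean of 5.10. FGFR2, another FGF receptor, was 5.76-fold higher there against a dim Vec mean of 6.25 (2.53 ± 0.12, limma adjusted p = 1.60e-09), FGFR3 2.58-fold higher, and CALCRL, which forms the adrenomedullin receptor together with RAMP proteins, 2.11-fold higher on a dim signal (1.08 ± 0.09, limma adjusted p = 2.28e-07). RAMP3, a partner of CALCRL, was the lower gene, at -0.26 ± 0.08 (limma adjusted p = 0.0169). In deprived medium 4 were higher, FGFR2, FGFR3, CALCRL and FGFR4, and 2 lower, RAMP3 and NRP1, a co-receptor of VEGFA, at -0.21 ± 0.07 (limma adjusted p = 0.0247). The genes named beyond the 3 with the smallest adjusted p in a list and comparison were picked after their values were seen.

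Of 28 further listed ligands 24 were measured, and 3 were higher and 7 lower in VHL than in Vec cells in control medium, and 3 higher and 6 lower in deprived medium. The higher ones were PDGFD, FGF18 and TYMP in each medium, with FGF18 dim at a mean of 6.75 over all arrays. PDGFD, a further member of the PDGF family, was 3.48-fold higher in control medium against a dim Vec mean of 6.37 (1.80 ± 0.08, limma adjusted p = 1.48e-09), while FGF1, acidic fibroblast growth factor, was 2.85-fold lower (-1.51 ± 0.09, 2.12e-08) and HBEGF, a ligand of the EGF receptor, 2.92-fold lower (-1.55 ± 0.11, 5.65e-08). PDGFD, FGF1 and HBEGF gave 1.71, -1.45 and -1.53 in deprived medium. Deprivation raised 2 of the 24 in VHL cells, CCN1, a matricellular angiogenic protein, by 0.33 ± 0.07 (limma adjusted p = 0.00753) and FGF18 by 0.26 ± 0.07 (0.0294), and lowered PDGFA, the A chain of platelet-derived growth factor, with means of 9.25 in deprived and 9.56 in control medium (-0.30 ± 0.05, 0.00127). No further ligand was called on deprivation in Vec cells. Between lines 23.1% of all genes were called higher and 23% lower in control medium, and 24.2% and 23% in deprived medium. On deprivation 6.16% of all genes rose and 5.48% fell in VHL cells, and 2.11% rose and 2.06% fell in Vec cells. Whether the ligands depart from these shares was not tested.

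Of 16 genes that process or hold these factors outside the cell 15 were measured, and none was called on deprivation in either line. In control medium 6 were higher and 4 lower in VHL cells. SDC2, a heparan sulphate proteoglycan that binds FGF2 and VEGFA, was 1.89-fold higher (0.92 ± 0.06, limma adjusted p = 1.72e-08), MME, a peptidase that degrades endothelin, 2.06-fold higher against a dim Vec mean of 6.95 (1.04 ± 0.10, 9.11e-07) and PAM, the enzyme that amidates adrenomedullin, 1.39-fold higher (0.48 ± 0.05, 5.59e-06). ECE1, which cuts big endothelin to the active peptide, was among the 4 lower, at -0.31 ± 0.07 (limma adjusted p = 0.0021), with FURIN, SDC4 and SDC1. In deprived medium 5 were higher and 3 lower, with SDC2 at 1.07, MME at 1.06 and GPC1, a cell surface proteoglycan, at 0.55. The shares of all genes called between lines were 23.1% higher and 23% lower in control medium, and 24.2% and 23% in deprived medium. On deprivation the shares were 6.16% higher and 5.48% lower in VHL cells, and 2.11% and 2.06% in Vec cells. Whether this list departs from them was not tested.

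All 13 listed secreted inhibitors of vessel growth were measured. VHL cells in control medium had 4 higher and none lower: SEMA3A, a semaphorin that binds NRP1, at 0.69 ± 0.06 (limma adjusted p = 2.45e-07), SEMA3F at 0.35 ± 0.05 (7.83e-05), THBS1, thrombospondin 1, at 0.55 ± 0.13 (0.00297), and COL18A1, the source of endostatin, at 0.21 ± 0.05 (0.00419). In deprived medium 3 were higher, SEMA3A, COL18A1 and SEMA3F, and 2 lower, ADAMTS1, a metalloprotease that binds VEGFA, and VASH1, vasohibin 1. VASH1 was dim at a mean of 6.19, and SEMA3A was dim in Vec cells, at 6.86 in control and 6.91 in deprived medium. ADAMTS1 was also the single inhibitor called on deprivation, at -0.32 ± 0.06 in VHL cells (limma adjusted p = 0.00343). The list medians between lines lay at 0.02 in deprived and 0.06 in control medium. Of all genes, 23.1% were called higher and 23% lower between lines in control medium, and 24.2% and 23% in deprived medium. In VHL cells 6.16% rose and 5.48% fell on deprivation, and in Vec cells 2.11% rose and 2.06% fell. Whether the inhibitors depart from these shares was not tested.

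Set beside these, 15 of 21 measured HIF targets that are not secreted were lower and 1 higher in VHL than in Vec cells in control medium, with a median of -1.33, and 16 were lower and 2 higher in deprived medium, with a median of -1.40. Over all genes the shares called between lines were 23% lower and 23.1% higher in control medium, and 23% and 24.2% in deprived medium. CA12, a carbonic anhydrase, was 9.2-fold lower in control medium (-3.20 ± 0.04, limma adjusted p = 1.48e-14) and DDIT4, an inhibitor of mTORC1 signalling, 7.66-fold lower (-2.94 ± 0.05, 4.05e-14). In deprived medium CA12 gave -3.00 and EGLN3, a prolyl hydroxylase that acts on HIF, -3.11. The VHL mean of EGLN3 there was dim, at 5.54. On deprivation 6 of the 21 rose and 1 fell in VHL cells, and 2 rose and 1 fell in Vec cells, where VLDLR, a lipoprotein receptor, rose by 0.43 ± 0.06 (limma adjusted p = 8.23e-04). Over all genes 6.16% rose and 5.48% fell in VHL cells, and 2.11% rose and 2.06% fell in Vec cells. DDIT4, which is also on the amino acid response list, rose by 2.26 ± 0.05 in VHL cells (limma adjusted p = 7.63e-12) and 1.25 ± 0.05 in Vec cells (4.15e-09), and its response was larger in VHL cells (difference 1.01 ± 0.06, limma adjusted p = 1.31e-05). DDIT4 was not alone: 7 of the 14 measured genes on that list had a called positive difference of responses, with a list median of 0.36. STC2, also on it, gave 0.57 ± 0.07 (limma adjusted p = 0.00428). Over all genes 0.125% had a called positive difference. Of 14 measured genes of the amino acid response 14 rose in VHL and 13 in Vec cells, with medians of 1.57 and 1.09 on the log2 scale, against at most 0.75 for any of the 9 factors. Among them were CHAC1, which breaks down glutathione, at 2.68 in Vec cells, and INHBE, an inhibin chain, at 2.51 in VHL cells. The mean of INHBE in VHL control cells was dim, at 4.70. Between lines, 1 of these 14 genes was higher and 9 were lower in VHL cells in control medium (median -0.49). In deprived medium 4 were higher and 7 lower (median -0.20). Whether the HIF target and amino acid response lists depart from the shares of all genes was not tested.

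Genes whose pattern over the 12 arrays was most like that of each factor were sought among 2734 genes whose group means spanned at least 0.5. These correlations are descriptions over all 12 arrays, so a difference between the VHL and Vec lines enters into them. VEGFA was most like SLC39A14, a metal transporter (r = 0.986), KRCC1 (0.985) and ATF4, the transcription factor of the amino acid response (0.983). ATF4 averaged 12.67 in VHL deprived, 12.23 in VHL control, 13.06 in Vec deprived and 12.95 in Vec control cells, the same order of groups as VEGFA. As ATF4 was picked for its likeness to VEGFA, a shared order is no separate result, and ADM, EDN1 and VEGFB had it too. A link between ATF4 and VEGFA was not tested. ADM was most like SRPX (0.9995), ENC1 (0.999) and SLC2A1, a glucose transporter (0.999). EDN1 was most like BMAL1, a clock transcription factor (0.997), HILPDA, a lipid droplet protein (0.997), and NFIL3, a bZIP repressor (0.996). ANGPTL4 was most like SIGLEC15 (0.997), SMURF2, a ubiquitin ligase (0.995), and DUSP5, an ERK phosphatase (0.992). PDGFB, with its smaller span of 0.85, was most like CASP9 (0.967), DCBLD2 (0.966) and MMP10 (0.963), and the other 4 factors spanned less than 0.5 and were not searched.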

How the data were processed

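RNA from RCC4 cells was hybridised to 12 single-colour Affymetrix arrays, with biotin-labelled targets per the labels' protocols. The deposited values are log2 expression values, a unit read from their range of 3.26 to 14.79. Background correction, summary and normalization are not given in the sources used here. The deposited log2 values were used unchanged. Of 22215 probe sets 19064 name 1 gene, and 19052 of these were given current symbols through RefSeq GRCh38.p14, leaving 11963 genes at the probe set with the highest mean. A model with the 4 group means was fitted to the 12 arrays in limma 3.58.1 (R 4.3.3), with moderated two-sided tests, 8 residual and 12.7 total degrees of freedom, and Benjamini-Hochberg adjustment over all 11963 genes. The word called stands for an adjusted p below 0.05. Errors are standard errors unless given as SD. The fit was tested on simulated data. With 3 arrays a group, the number of arrays limits the precision. The replicates are labelled biological, but the labels do not say whether they are separate cultures. The p-values therefore measure the spread between these arrays, which may still be technical.

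The members and lists were chosen with earlier results of these data known. Named were all 9 factors, up to 3 called genes by smallest adjusted p per list and comparison (up to 2 for HIF targets and the amino acid response), and for each factor spanning at least 0.5 the 3 genes with the highest Pearson r. Arrays were treated as unpaired, as the labels do not say that equal replicate numbers share a culture day. Residuals of arrays sharing a replicate number correlated between -0.268 and 0.235 over 18 pairs (median 0.0526). Those with other numbers ran from -0.35 to 0.291 over 36 pairs (median -0.0179). These wide, overlapping ranges cannot show whether the arrays were paired. Alternatives were quantile normalization, median centring, leaving out dim genes, averaging the probe sets of a gene, testing probe sets singly, dropping those whose names end in _x_at or _s_at, trended and robust moderation, a fit of the compared groups only, the replicate number as a block, and leaving out each array in turn.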

Additional observations from a re-analysis of the deposited data

How the results depend on the processing

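Of 685 member values under alternatives, 652 kept direction and call, 8 lost the call and 4 gained it with the sign kept, and 21 changed sign. Of those 21, 1 also lost its call (PDGFB between lines in control medium) and 1 also gained one (FGF2 between lines in deprived medium). The line differences of ADM, EDN1, ANGPTL4, VEGFA and VEGFC, and the rises of VEGFA, ADM and EDN1 in VHL cells, were called under every alternative that gave them a value. With names ending in _x_at or _s_at dropped, ADM, VEGFC and PDGFB alone had values, and the factors called were 0 for deprivation in Vec cells, 1 in VHL cells and 2 between lines in each medium; PDGFB gave -0.015 between lines in control medium, 0.13 in deprived medium (limma adjusted p = 0.391), -0.16 for deprivation in Vec cells and 0.14 for the difference of responses. Leaving out 1 array at a time gave 0 to 2 called factors for deprivation in Vec cells, with 0 when the second Vec control array or the first Vec deprived array was dropped. For the difference of responses 1 factor, ADM, was called with dim genes left out and 1, again ADM, with trended and robust moderation. Averaging probe sets brought calls for VEGFA on deprivation in Vec cells (0.27, limma adjusted p = 0.0143) and for FGF2 between lines, at 0.45 in control (1.43e-04) and 0.45 in deprived medium (1.54e-04), and gave 0.15 for FGF2 on deprivation in VHL cells, -0.064 for PGF and -0.019 for PDGFB on deprivation in Vec cells, 0.046 for the PGF difference of responses and -0.048 for PGF between lines in control medium. Median centring gave -0.00075 for VEGFC on deprivation in Vec cells. Leaving out 1 array gave -0.026 to 0.03 for VEGFC, -0.024 to 0.059 for PGF and -0.038 to 0.16 for FGF2 on deprivation in Vec cells, and -0.13 to 0.0076 for PGF and -0.14 to 0.076 for FGF2 between lines in deprived medium; all of these were uncalled. The cause of these changes was not tested, except that dropped probe sets and arrays leave fewer values.

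With the replicate number as a block, the counts of called factors were 2 and 3 for deprivation in Vec and VHL cells, 0 for the difference of responses and 6 between lines in each medium, and no call or direction changed in 45 of 45 values. Dim signal limits PDGFB, whose 4 probe sets were all dim, and EDN1 in VHL control cells.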
